A study of Mus musculus with 8 samples.

Results

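The epidermal kallikreins Klk5, Klk6, Klk7, Klk8, Klk10, Klk11, Klk13 and Klk14 and the inhibitor gene Spink5 were taken by symbol from the deposited count tables of mouse paw tissue. All 9 had a row among the 22609 gene symbols of each table, and all 9 passed the filter on low counts that left 14790 genes for testing. RNA was sequenced in 8 libraries, 4 from male and 4 from female C57BL/6J mice. According to the labels every animal had received prolactin (PRL), at 0.1 µg per injection into the paw, with 1 injection a day for 12 days. The labels give no age and do not say which layers of the paw were taken. Vehicle-treated animals, which the protocol text also lists, were not analysed here, and no untreated level stands beside the values of either sex. The labels do not say whether the libraries came from separate animals, and the p-values measure only the spread between these libraries.

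Tissue kallikreins are secreted serine proteases that are made as inactive precursors. In skin, keratinocytes of the upper living layers secrete them into the space between the cells, where they cut the corneodesmosome proteins that hold cornified cells together and so allow shedding at the surface. They can also activate one another and cut the receptor PAR2. Spink5 encodes LEKTI, a protein of many Kazal-type inhibitor domains that blocks several of these proteases. Loss of LEKTI causes Netherton syndrome, in which the skin barrier fails.

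The kallikrein genes lie side by side in 1 cluster, and in the RefSeq gene table Klk8, Klk7, Klk6 and Klk5 follow one another in that order. The promoters of Klk7, Klk6 and Klk5 are shown because Klk6 lies between 2 genes whose transcript levels moved together across the libraries while its own did not. They are from RefSeq's mouse build GRCm38.p6, on chromosome 7, and hold 250 bases before and 50 bases after a transcript start, written 5′ to 3′. RefSeq gives Klk6 more than 1 start, of which both windows in the table are shown. Capitals mark the motifs found on either strand.
Klk7 (chr7:43811044-43811343, + strand): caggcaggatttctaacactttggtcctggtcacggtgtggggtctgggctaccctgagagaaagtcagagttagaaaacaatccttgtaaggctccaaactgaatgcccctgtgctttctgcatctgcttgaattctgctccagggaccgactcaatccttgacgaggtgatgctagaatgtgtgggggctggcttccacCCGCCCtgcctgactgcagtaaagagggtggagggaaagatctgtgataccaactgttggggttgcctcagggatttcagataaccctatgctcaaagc
Klk6, upstream start (chr7:43824294-43824593, + strand): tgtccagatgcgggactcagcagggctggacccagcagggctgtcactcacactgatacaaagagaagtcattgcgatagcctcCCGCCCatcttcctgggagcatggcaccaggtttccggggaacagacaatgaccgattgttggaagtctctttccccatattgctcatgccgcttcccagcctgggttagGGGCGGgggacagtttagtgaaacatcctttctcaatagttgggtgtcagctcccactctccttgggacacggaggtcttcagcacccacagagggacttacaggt
Klk6, downstream start (chr7:43825200-43825499, + strand): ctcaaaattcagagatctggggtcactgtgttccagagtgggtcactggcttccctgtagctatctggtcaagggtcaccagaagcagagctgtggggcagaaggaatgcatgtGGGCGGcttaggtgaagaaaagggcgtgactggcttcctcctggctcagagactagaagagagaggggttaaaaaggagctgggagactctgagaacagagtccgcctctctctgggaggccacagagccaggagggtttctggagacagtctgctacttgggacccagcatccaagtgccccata
Klk5 (chr7:43842019-43842318, + strand): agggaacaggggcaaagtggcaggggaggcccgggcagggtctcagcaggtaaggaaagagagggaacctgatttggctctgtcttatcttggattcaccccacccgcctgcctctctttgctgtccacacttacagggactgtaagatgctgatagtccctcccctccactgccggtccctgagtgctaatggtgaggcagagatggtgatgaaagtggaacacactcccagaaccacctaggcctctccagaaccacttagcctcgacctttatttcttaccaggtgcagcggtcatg
These patterns were searched, and no match overlapped another: TATAAA (the TATA box), TGANTCA (the core of AP-1 sites) and GGGCGG (the GC box). GGGCGG was the one found in these windows. It occurred once in Klk7, on the minus strand, 2 times at the upstream Klk6 start, once at the downstream Klk6 start and not at all in Klk5. Of all 32851 promoters of this length from RefSeq, GGGCGG was held by 35.7%, TATAAA by 13.6% and TGANTCA by 7.81%. All 8 kallikreins matched the promoter table, with 10 promoters in all. Klk8 also held GGGCGG.

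Each library held 16753528 to 24993744 counts assigned to genes. Xist, the X-inactivation RNA, stood at 1568 CPM or more in each female and at 1.91 CPM or less in each male, as labelled. The tissue in the libraries varied. The summed level of 16 fast skeletal muscle genes was 32.4 CPM in female replicate 3 and between 985 and 29452 CPM in the other libraries. The summed level of 12 keratinocyte genes ran from 39034 to 59333 CPM among females and from 51644 to 67639 CPM in males. The mean log2 CPM of the same 12 genes, centred on 0, ordered the libraries differently. It was highest in female replicates 3 and 2 (0.262 and 0.228, against 0.198 in the highest male). The lowest values were those of female replicates 4 and 1 (-0.421 and -0.287). In bulk tissue, fewer cells of a type and less RNA per cell cannot be told apart.

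All 9 transcripts were detected in each library, over a wide range of abundance. Per kilobase of exon, with the exon lengths of GENCODE M21, Klk7 had the highest mean level, 383 ± 62 CPM per kb (SD, n = 8 libraries). It was followed by Spink5 at 304 ± 68.4 CPM per kb, Klk8 at 281 ± 59.2 CPM per kb and Klk5 at 247 ± 35.7 CPM per kb. These 4 overlapped in their ranges across the libraries. Klk7 exceeded Spink5 within 8 of 8 libraries, Spink5 exceeded Klk8 in 6 and Klk8 exceeded Klk5 in 7. The annotation used for counting was not given, and the order of these 4 depends on the exon lengths used. Below them each gene was separated from its neighbour in the order by a gap with no overlap of the ranges. Klk11 stood at 99.3 ± 19.5 CPM per kb, Klk13 at 35.6 ± 11.1 CPM per kb and Klk10 at 12.6 ± 3.65 CPM per kb. The lowest were Klk6 at 3.58 ± 1.21 CPM per kb and Klk14 at 0.382 ± 0.24 CPM per kb. By mean CPM, not corrected for length, Spink5 and Klk7 lay above 99.2% or more of the tested genes, and Klk14 lay among the lowest 0.385%.

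**Figure D1:**
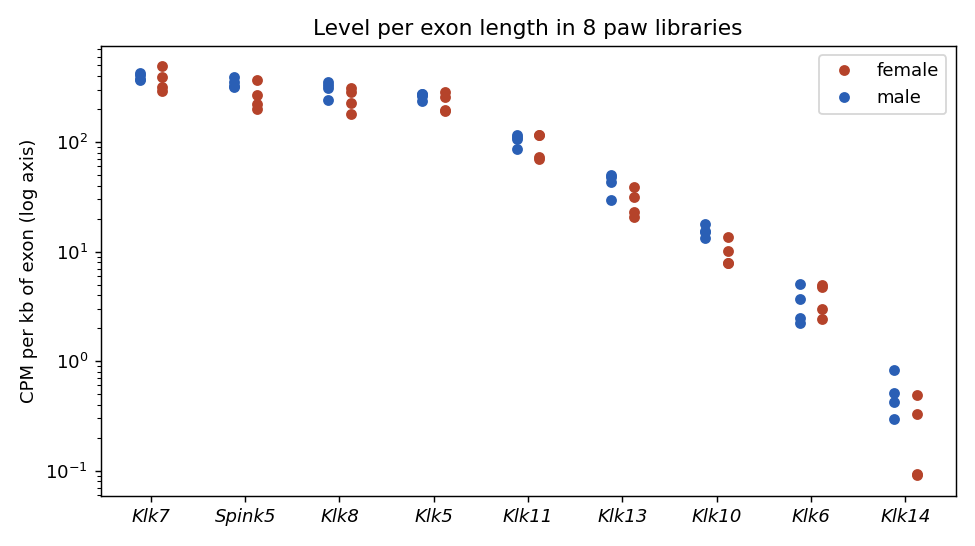
Level of each member in CPM per kilobase of exon (log axis) in 4 male and 4 female libraries, 1 point per library, ordered by the mean over the 8 libraries. Klk7, Spink5, Klk8 and Klk5 overlap at the top, and Klk14 lies lowest at a mean of 0.382 CPM per kb.

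The design asks whether the prolactin-treated paw differs between females and males. None of the 9 genes passed the test between the sexes. In the edgeR quasi-likelihood test 0 of 9 were called, against 0.0947% of all tested genes (14 of 14790, with 0.0406% called higher and 0.0541% called lower in females). DESeq2 and limma-voom also called 0 of 9, where DESeq2 called 0.757% and limma-voom 0.108% of all tested genes. An unadjusted p under 0.05 was reached by 2 members, Klk10 and Klk13, in edgeR (6.53% of all genes), by 3 in DESeq2 (7.01%) and by 2 in limma-voom (6.57%). The log2 fold change, female over male, lay below 0 for 8 of the 9 members with a median of -0.31, while 47.3% of all tested genes lay below 0 and their median was 0.01. The 9 values rest on the same 8 libraries and are not independent of one another. The libraries of the sexes overlapped for 9 of 9 members, while they did not overlap for 4.73% of all tested genes.

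Klk5 and Klk14 encode trypsin-like proteases that can start the cascade. Klk5, which can activate itself and Klk7, stood at 338, 292, 323 and 341 CPM in male replicates 1 to 4 and at 238, 321, 355 and 245 CPM in female replicates 1 to 4. Female replicates 1 and 4 lay below all males, female replicate 3 was the highest of the 8 libraries, and the groups overlapped. The log2 fold change was -0.16 (SE 0.14, 95% interval -0.49 to 0.17, adjusted p in edgeR = 0.980). Klk14, a protease that can also activate PAR2, had 2 to 21 counts per library. Its level was 1.04, 0.374, 0.654 and 0.539 CPM in male replicates 1 to 4 and 0.118, 0.416, 0.618 and 0.116 CPM in female replicates 1 to 4. Again female replicates 1 and 4 were the lowest. The log2 fold change of Klk14 was -1.02 with an SE of 0.58 (95% interval -2.34 to 0.30, adjusted p in edgeR = 0.844). Klk14 passed the filter because 3 male and 1 female libraries exceeded its minimum of 0.491 CPM.

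Klk7 and Klk8 follow in the cascade. Klk7, a chymotrypsin-like protease that cuts corneodesmosin, stood at 781, 702, 708 and 800 CPM in male replicates 1 to 4 and at 549, 735, 927 and 602 CPM in female replicates 1 to 4. The males lay within the span of the females, whose replicate 3 was highest and replicate 1 lowest. The log2 fold change of -0.09 (SE 0.17, 95% interval -0.47 to 0.29, adjusted p in edgeR = 0.999) turned to 0.01 without female replicate 1. Klk8, a trypsin-like protease also called neuropsin, stood at 441, 323, 414 and 464 CPM in male replicates 1 to 4. In female replicates 1 to 4 it stood at 236, 411, 380 and 299 CPM. Male replicate 2, highest in muscle transcript, lay below 2 of the females. For Klk8 the log2 fold change was -0.31 (SE 0.19, 95% interval -0.74 to 0.13, adjusted p in edgeR = 0.877).

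The largest differences among members with more than 100 counts in each library were those of Klk10 and Klk13, at 1.56 and 1.49 times more in males. Klk10 stood at 20.7, 18.1, 24.3 and 21.4 CPM in male replicates 1 to 4 and at 10.9, 13.9, 18.6 and 10.7 CPM in female replicates 1 to 4. The groups overlapped only through female replicate 3 and male replicate 2. The log2 fold change of Klk10 was -0.64 (SE 0.19, 95% interval -1.08 to -0.21, unadjusted p = 0.00922, adjusted p in edgeR = 0.594). Klk13, a trypsin-like protease, stood at 90.3, 53.4, 78 and 86.5 CPM in male replicates 1 to 4. In female replicates 1 to 4 it stood at 37.1, 70.5, 57.3 and 41.3 CPM. Male replicate 2 lay below female replicates 2 and 3, and the other 3 males lay above all females. Its log2 fold change was -0.58 (SE 0.24, 95% interval -1.12 to -0.04, unadjusted p = 0.0387, adjusted p in edgeR = 0.749). These intervals of single genes are not corrected for the number of genes tested.

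Klk11 and Klk6 had fold changes within their SE. Klk11, a trypsin-like protease, stood at 163, 126, 155 and 169 CPM in male replicates 1 to 4 and at 107, 168, 169 and 103 CPM in female replicates 1 to 4. The females split into 2 low and 2 high libraries, the high ones level with the highest male. For Klk11 it was -0.16 on the log2 scale (SE 0.19, 95% interval -0.60 to 0.27, adjusted p in edgeR = 0.999). Klk6, a trypsin-like protease also known from myelinating glia, stood at 3.38, 3.74, 5.56 and 7.69 CPM in male replicates 1 to 4. In female replicates 1 to 4 it stood at 7.19, 4.53, 7.55 and 3.7 CPM. Both sexes held low and high libraries. Klk6 was the one member with a log2 fold change above 0, at 0.17 (SE 0.33, 95% interval -0.59 to 0.93, adjusted p in edgeR = 0.999). Without female replicate 3 and male replicate 2 it was -0.14.

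The inhibitor Spink5 stood at 1693, 1503, 1550 and 1859 CPM in male replicates 1 to 4 and at 963, 1276, 1749 and 1057 CPM in female replicates 1 to 4. Female replicates 1, 2 and 4 lay below all males, and female replicate 3 lay among the highest libraries. Its mean was 1261 ± 351 CPM among females and 1651 ± 160 CPM among males (SD, n = 4 each), which gave -0.39 on the log2 scale (SE 0.19, 95% interval -0.83 to 0.05, adjusted p in edgeR = 0.793). Without female replicate 3 it was -0.59, the farthest from 0 among the fits with 1 library fewer.

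**Figure D2:**
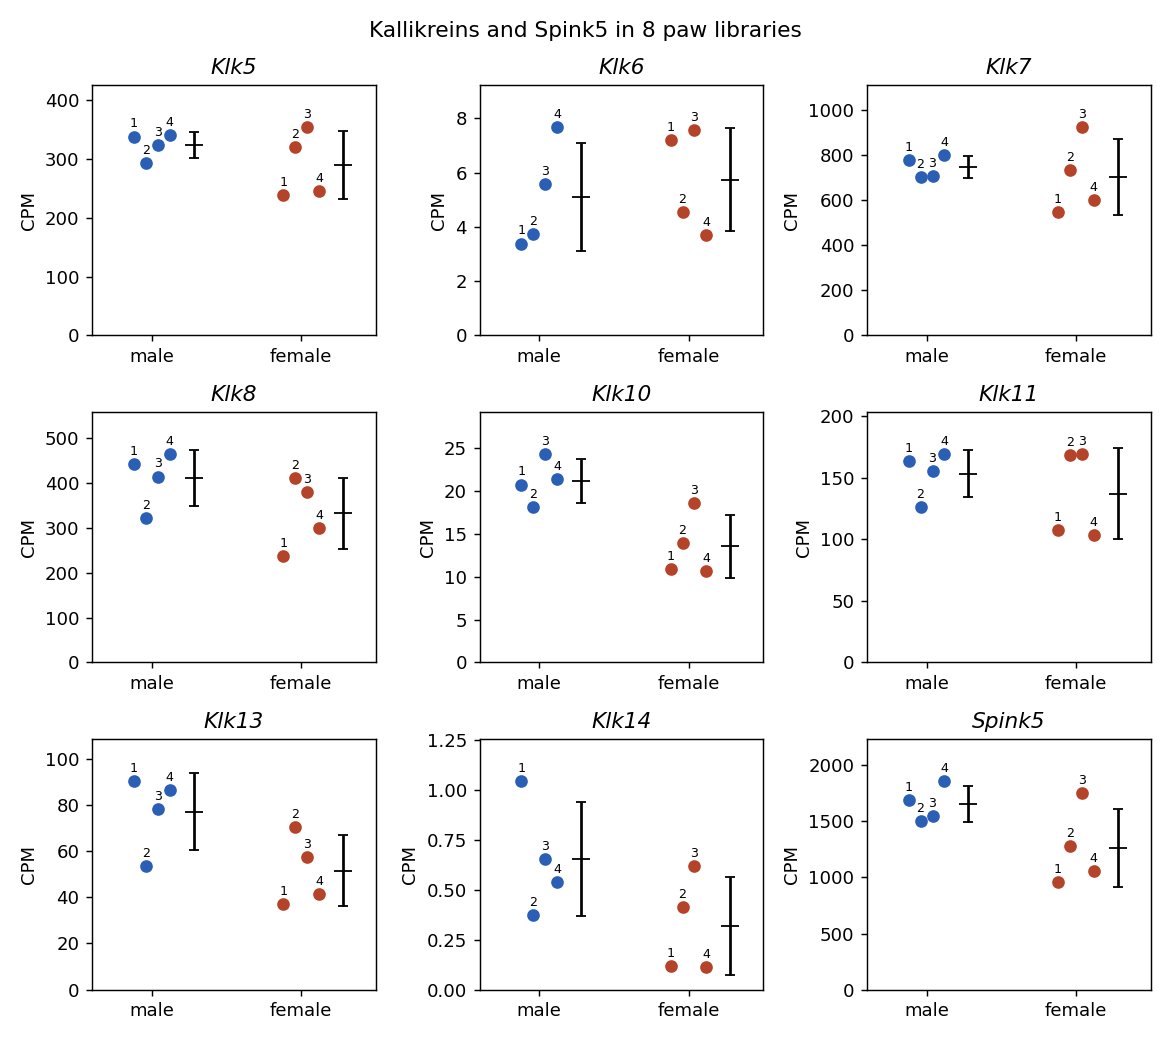
CPM of the 9 members in each library, males in blue and females in red, with the replicate number beside each point and the mean ± SD (n = 4) as a black bar; each vertical axis starts at 0. Female replicates 1 and 4 are the 2 lowest libraries for 8 of the 9 genes, Klk6 being the exception, and the sexes overlap in all 9 panels.

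The SD among the 4 females exceeded the difference between the means of the sexes for 5 of the 9 members, namely Klk5, Klk6, Klk7, Klk8 and Klk11. Across the 8 libraries the coefficient of variation was 14.4% for Klk5, 16.2% for Klk7, 22.5% for Spink5, 31.3% for Klk13, 33.8% for Klk6 and 62.9% for Klk14. The biological coefficient of variation that edgeR estimated placed Klk5 at the 47.1st percentile of all tested genes, the other members except Klk6 and Klk14 between the 59.3rd and the 70.9th, Klk6 at the 86.4th and Klk14 at the 93rd. The lowest library was female replicate 1 for Klk5, Klk7, Klk8, Klk13 and Spink5. It was female replicate 4 for Klk10, Klk11 and Klk14, and male replicate 1 for Klk6.

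Of the 9 members 8 shared 1 pattern across the libraries and Klk6 did not. As a description over 8 libraries, the Pearson correlation of a member's log2 CPM with the mean of the other members was 0.98 for Klk5, 0.94 for Klk11, 0.93 for Spink5 and 0.91 for Klk14. It was 0.86 to 0.89 for Klk7, Klk8, Klk10 and Klk13, and 0.10 for Klk6. These points share libraries, tissue content and, in CPM, a common total. In female replicate 1 Klk6 was near its highest level while the 8 others were low, and in male replicate 1 it was at its lowest while the others lay above their means.

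The keratinocyte score of a library, the mean log2 CPM of 12 keratinocyte genes such as Krt5, Krt14, Krt1 and Krt10, moved with most members. Of 18 relations examined (9 members against the keratinocyte and the muscle score), 5 passed a two-sided exact permutation test of Pearson's r with Benjamini-Hochberg adjustment, all with the keratinocyte score. The count fell to 3 when male replicate 1, 2 or 4 or female replicate 1 or 4 was left out. Without adjustment 7 of 9 members had p under 0.05 in this exact permutation test, as did 32.2% of all 14790 tested genes. Adjusted over all tested genes, 3 members passed, namely Klk11, Klk5 and Klk7, and 1112 of the 14790 genes did so. The adjusted p given below are over the 18 relations. Klk11 followed that score most closely (r = 0.98, exact permutation p = 7.44e-05, adjusted p = 0.00134; rho = 0.98, p = 0.000397, adjusted p = 0.00714). Klk5 had r = 0.94 (exact permutation p = 0.00146, adjusted p = 0.0125) and rho = 0.83 (p = 0.0154, adjusted p = 0.0554). Klk7 had r = 0.87 (exact permutation p = 0.00208, adjusted p = 0.0125) and rho = 0.90 (p = 0.00456, adjusted p = 0.0411). Without female replicates 1 and 4, the 2 libraries farthest from the median score, r remained at 0.98 for Klk11, 0.89 for Klk5 and 0.69 for Klk7.

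For the other members r with the keratinocyte score was lower, and without those 2 libraries it fell further for all but Klk6. Klk8 had r = 0.84 (exact permutation p = 0.00945, adjusted p = 0.034) and rho = 0.60 (p = 0.132, adjusted p = 0.238), with r = 0.71 without them. Klk14 also had r = 0.84 (exact permutation p = 0.00878, adjusted p = 0.034) and rho = 0.62 (p = 0.115, adjusted p = 0.230), and r dropped to 0.42. Spink5 did not pass (r = 0.76, exact permutation p = 0.0292, adjusted p = 0.0658; rho = 0.69, p = 0.0694, adjusted p = 0.178), and without these libraries its r was 0.23. Klk13 (r = 0.81, adjusted exact permutation p = 0.055) and Klk10 (r = 0.66, adjusted exact permutation p = 0.147) did not pass either. Without these libraries r was 0.44 for Klk13 and -0.17 for Klk10. Klk6 had r = 0.28 (exact permutation p = 0.482, adjusted p = 0.542), and 0.45 without these libraries. Against the muscle score r lay below 0 for 9 of 9 members, from -0.79 for Klk7 to -0.27 for Klk13, and no relation passed (lowest adjusted exact permutation p = 0.0516, for Klk7). Without adjustment 1 of 9 members had p under 0.05 against that score in the exact permutation test, and so did 22.6% of all tested genes.

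**Figure D3:**
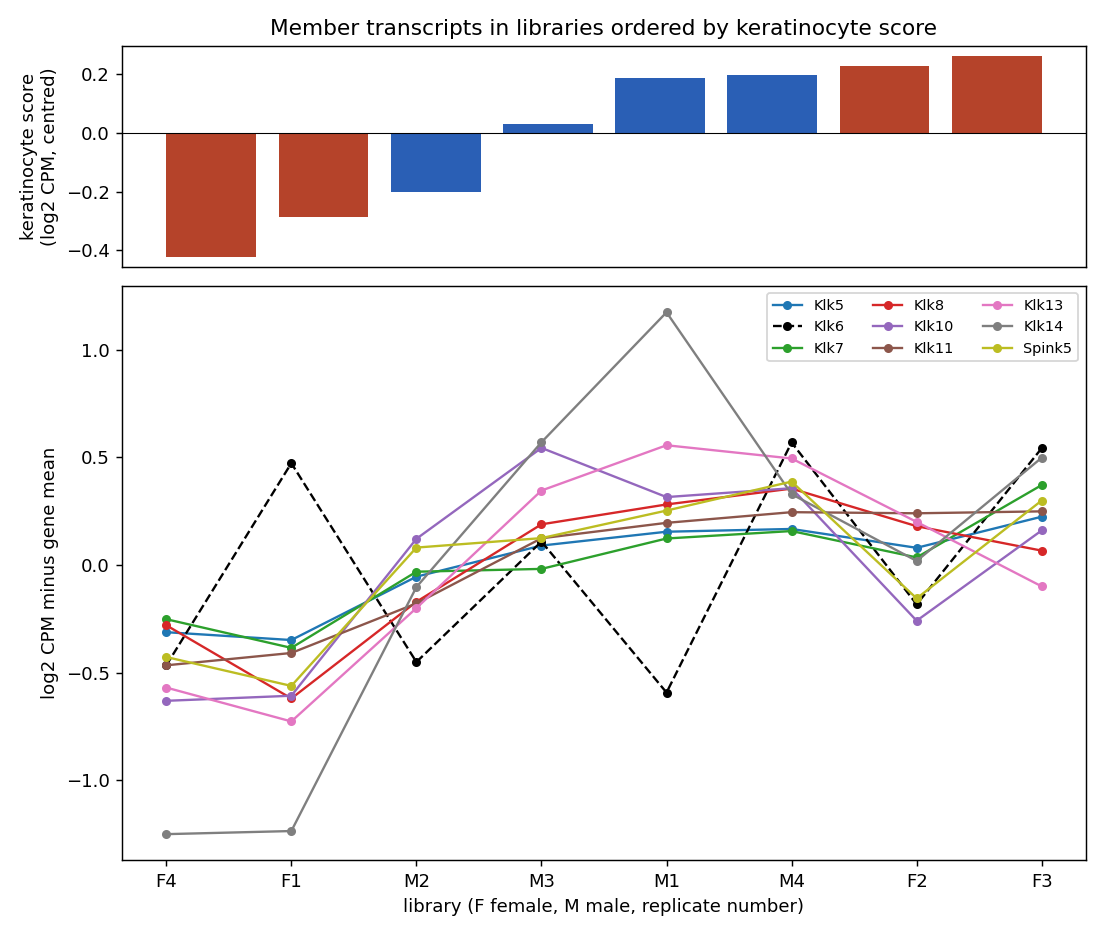
Top, keratinocyte score (mean log2 CPM of 12 keratinocyte genes, centred on 0) of the 8 libraries in rising order, males blue and females red. Bottom, log2 CPM of each member minus its mean over the libraries; 8 members lie low in female replicates 4 and 1, and Klk6 (black, dashed) does not follow them (r = 0.10 with the mean of the others).

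With the keratinocyte score as a covariate the fold changes of Klk10 and Klk13 were -0.58 (SE 0.13, adjusted p in edgeR = 0.0946) and -0.46 (SE 0.11, adjusted p in edgeR = 0.117), still short of the threshold. That of Spink5 was -0.32 (SE 0.11, adjusted p in edgeR = 0.217), and those of Klk5, Klk7 and Klk11 lay between -0.10 and -0.03. In this fit 4 of 9 members had an unadjusted p under 0.05, against 15.7% of all tested genes. With the muscle score as a covariate 7 of 9 members had an unadjusted p under 0.05, against 9.12% of all genes, and the lowest adjusted p were those of Klk10 (-0.79, SE 0.13, adjusted p in edgeR = 0.0974) and Spink5 (-0.55, SE 0.10, adjusted p in edgeR = 0.112). The part of keratinocyte or muscle content in the differences between the sexes was not tested.

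Counts of each kallikrein over those of Spink5 within a library do not depend on the library's total. They are not corrected for length, and since Spink5 has 4785 bases of exon against 1239 to 1895 for the kallikreins, they compare libraries and not the abundance of the 2 transcripts. The 8 kallikreins together had 1.09, 1.01, 1.10 and 1.02 counts per Spink5 count in male replicates 1 to 4 and 1.23, 1.35, 1.10 and 1.23 in female replicates 1 to 4. The mean was 1.23 ± 0.105 in females and 1.05 ± 0.0474 in males (SD, n = 4 each), and the groups overlapped only through female replicate 3 and male replicate 3. Per kilobase of exon the summed ratio was 3.81 ± 0.349 in females and 3.28 ± 0.160 in males (SD, n = 4 each). As a sum over the members it was given no test. Klk7 made up 41.4 to 48.4% of the summed kallikrein counts in the 8 libraries, Klk8 19.9 to 24.6%, Klk5 18 to 20.1% and Klk11 7.91 to 9.76%.

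The ratio of Klk7 to Spink5 was 0.461, 0.467, 0.457 and 0.430 in male replicates 1 to 4 and 0.570, 0.576, 0.530 and 0.570 in female replicates 1 to 4. Per kilobase of exon, by the GENCODE M21 lengths, this was 1.34 to 1.45 in females and 1.09 to 1.18 in males. By these lengths Klk7 was the higher of the 2 transcripts in each library, which may not hold for the annotation used in counting. All females lay above all males, which was also so for 13.8% of all tested genes when set over Spink5. The ratio of Klk10 to Spink5 went the other way, at 0.0123, 0.0121, 0.0157 and 0.0115 in male replicates 1 to 4 and 0.0113, 0.0109, 0.0106 and 0.0101 in female replicates 1 to 4. All females lay below all males, narrowly in male replicate 4 against female replicate 1. That order held for 26 of 14789 genes set over Spink5 (0.176%). Spink5 itself had a log2 fold change of -0.39, and a lower denominator raises every ratio to it in females. Both shares therefore depend on Spink5 and do not measure how rare a difference in Klk7 or Klk10 is. These ratios were singled out from all the kallikreins examined, and no test was made. The other 6 kallikreins overlapped between the sexes in this ratio. Klk5 stood at 0.233 ± 0.0221 in females and 0.197 ± 0.0105 in males (SD, n = 4 each), Klk8 at 0.267 ± 0.0456 and 0.248 ± 0.0234, and Klk13 at 0.0414 ± 0.00967 and 0.0464 ± 0.00778.

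**Figure D4:**
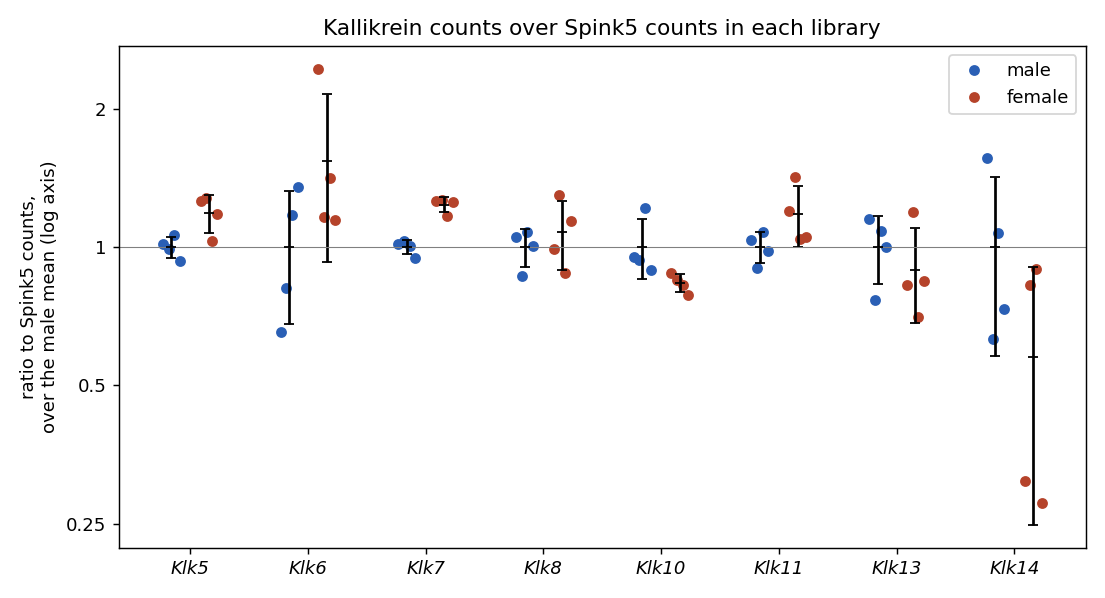
Counts of each kallikrein over Spink5 counts in each library, divided by the male mean of that gene (log axis), with mean ± SD (n = 4) as black bars; males blue, females red. The sexes are apart for Klk7 (females 0.530 to 0.576, males 0.430 to 0.467 before division) and for Klk10 in the opposite direction, and overlap for the other 6.

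Of the 18 other kallikrein genes listed, 2 passed the filter, both in the same cluster. Klk9 stood at 60.8 ± 14.8 CPM among females and 70.6 ± 3.77 CPM among males (SD, n = 4 each), with a fold change on the log2 scale of -0.22 (SE 0.16, adjusted p in edgeR = 0.929). Klk12 stood at 1.17 ± 0.575 CPM among females and 3 ± 0.859 CPM in males (log2 difference -1.35, SE 0.37, unadjusted p = 0.00572, adjusted p in edgeR = 0.511), on 11 to 72 counts per library. The ranges of the sexes touched, with a highest female of 1.99 CPM and a lowest male of 1.98 CPM. Of the 16 that did not pass, 8 had 0 counts in all libraries, and the highest count of any was 16, for Klk15. Most of these belong to the Klk1b group of near-identical copies, whose counts are uncertain because reads can match several of them.

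Other inhibitors did not pass the test either, with 0 of 6 tested genes called, 4 below 0 and a median log2 fold change of -0.13. Spink12, another Kazal-type inhibitor gene, had the smallest p of the list, at 2.37 ± 0.648 CPM among females and 4.5 ± 1.77 CPM among males (SD, n = 4 each), with a fold change on the log2 scale of -0.93 (SE 0.36, adjusted p in edgeR = 0.733). Slpi, an inhibitor of leukocyte elastase and other serine proteases, differed on the log2 scale by -0.54 (SE 0.28, adjusted p in edgeR = 0.824) and Spink6, an inhibitor of kallikreins, 0.45 (SE 0.28, adjusted p in edgeR = 0.877). Spink6 rested on only 8 to 20 counts per library. Serpina12, which encodes the Klk7 inhibitor vaspin, stood at 804 ± 172 CPM among females and 924 ± 106 CPM in males (log2 difference -0.20, SE 0.17, adjusted p in edgeR = 0.963).

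Proteases upstream of or beside the cascade did not pass the test. Of 5 tested genes 0 were called and 4 lay below 0, with a median log2 fold change of -0.02. Plat, the tissue plasminogen activator, had 0.36 (SE 0.26, adjusted p in edgeR = 0.920) and Prss27, a membrane serine protease, -0.15 (SE 0.15, adjusted p in edgeR = 0.991). The membrane proteases matriptase (St14, -0.04, SE 0.17) and prostasin (Prss8, -0.02, SE 0.15), and the urokinase gene Plau (-0.02, SE 0.16), had SEs above their fold changes, each with an edgeR adjusted p of 0.999.

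Among substrates and targets 0 of 10 tested genes were called, with 5 on each side of 0 and a median of -0.07. F2rl1, which encodes PAR2, had the smallest p, at 44.4 ± 4.45 CPM among females and 34.6 ± 4.9 CPM among males (SD, n = 4 each), with a fold change on the log2 scale of 0.36 (SE 0.12, adjusted p in edgeR = 0.657). Its direction was opposite to that of most kallikreins, and the sexes overlapped. Corneodesmosin (Cdsn), the corneodesmosome glue protein, stood at 1213 ± 246 against 1434 ± 120 CPM (log2 difference -0.24, SE 0.16, adjusted p in edgeR = 0.896). The desmosomal cadherin gene Dsc1 had -0.30 (SE 0.22, adjusted p in edgeR = 0.922) and the sphingomyelinase gene Smpd1 -0.16 (SE 0.13, adjusted p in edgeR = 0.958).

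Genes of the granular and cornified layers, where kallikreins are made and act, lay below 0 in 16 of 18 cases with a median log2 fold change of -0.19, and edgeR called 0. Of all tested genes 47.3% lay below 0. These 18 values rest on the same libraries and are not independent of one another. Other lists were as one-sided with 0 called: 15 of 16 fast muscle genes lay below 0 and 15 of 15 hair follicle genes above 0. Lor, which encodes the main cornified envelope protein loricrin, stood at 2131 ± 255 CPM among females and 2871 ± 144 CPM in males with no overlap (log2 difference -0.43, SE 0.12, adjusted p in edgeR = 0.511), as was the case in that direction for 1.81% of all tested genes. DESeq2 called Lor (adjusted p = 0.00496). The envelope precursor gene Sprr1b had -0.66 (SE 0.20, adjusted p in edgeR = 0.594), involucrin (Ivl) -0.36 (SE 0.15, adjusted p in edgeR = 0.749) and the filaggrin relative Flg2 0.68 (SE 0.35, adjusted p in edgeR = 0.810). Of 5 keratins of footpad and stressed epidermis 0 were called and 3 lay above 0. The footpad keratin gene Krt9 had 1.04 (SE 0.58, adjusted p in edgeR = 0.841), Krt16 -0.42 (SE 0.66, adjusted p in edgeR = 0.999), and Krt6b (0.34, SE 1.13) and Krt6a (0.08, SE 0.36) had SEs above their fold changes.

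**Figure D5:**
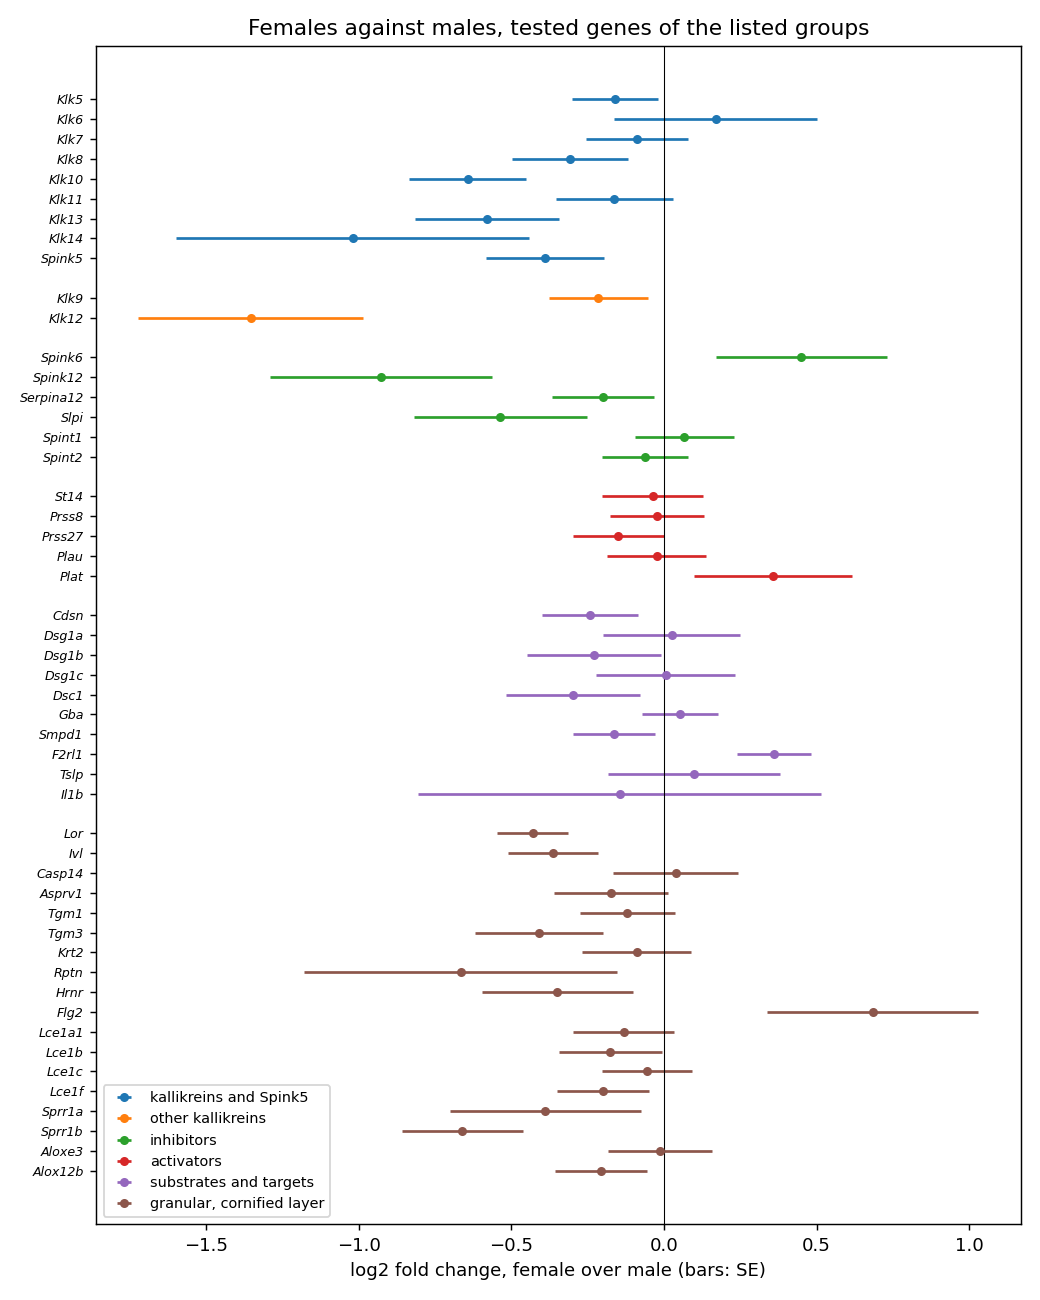
Log2 fold change, female over male, with its SE for each tested gene of the kallikrein and Spink5 group, the other kallikreins, inhibitors, activating proteases, substrates and targets, and granular and cornified layer genes. Of the 9 members 8 and of the 18 granular and cornified genes 16 lie left of 0, and none was called by edgeR. Of all tested genes 47.3% lie left of 0, and genes of a group are not independent of one another.

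Markers of other paw tissues differed among the libraries. The summed level of 15 hair follicle genes was highest in female replicate 3 at 1325 CPM and lowest in male replicate 2 at 172 CPM. Glial markers, of interest for Klk6, summed to 402 to 762 CPM among females and 355 to 736 CPM in males, and the oligodendrocyte gene Mog had 0 to 7 counts per library. Sebaceous, sweat gland, and macrophage and neutrophil markers summed to 1810 to 2519, 460 to 846 and 306 to 817 CPM. As a description over 8 libraries that share their totals, the log2 sums were correlated with the members' mean pattern. The correlation was 0.74 for sweat gland, 0.35 for hair follicle, 0.05 for sebaceous, -0.56 for macrophage and neutrophil and -0.74 for glial markers. For the summed keratinocyte genes it was 0.97, and for the summed fast muscle genes -0.58. Sweat gland markers were highest in male replicate 4 and lowest in female replicate 1, and glial markers were highest in female replicate 4. Their part in the members' levels was not tested. Klk6 did not follow the members' mean pattern, and its own relation to the glial markers was not tested.

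Among the 10 genes whose profile over the 8 libraries was most like the mean profile of the members were Gm11992, Fgfbp1, Uchl3, S100a14, 2010109K11Rik, Gcat, Ly6g6c, Polr3k and Arap2. Their Pearson correlations with that profile were 0.98 to 0.99. Of the 14781 genes compared with it, 307 exceeded 0.9. Fgfbp1, which encodes a carrier protein for fibroblast growth factors, had r = 0.99 and differed by -0.26 on the log2 scale (SE 0.17, adjusted p in edgeR = 0.907). S100a14, a calcium-binding protein gene, had r = 0.98 and -0.27 (SE 0.17, adjusted p in edgeR = 0.897). The 9 genes named here lay below 0 and none was called. They were picked for likeness to a profile that lay lowest in female replicates 1 and 4. Their direction thus follows from the choice and is no separate result.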

How the data were processed

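Per the labels' protocols, about 500 ng total RNA from paw entered a stranded poly(A)-selecting kit and was read as 50-base single ends. The submitters' processing notes name bcl2fastq, TopHat2, HTSeq and build mm9. Versions, annotation and strand setting were not given in the sources used here. Whole-number read counts per gene symbol were deposited without normalization.

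The sexes were compared in edgeR 4.0.16 (R 4.3.3) with filterByExpr, TMM and the robust quasi-likelihood test, adjusted by Benjamini-Hochberg over 14790 genes, with calls under 0.05. CPM are counts scaled by TMM, log2 CPM used a prior count of 2, and the SE is the fold change over the square root of F. Alternatives were DESeq2 1.42.0, limma-voom (limma 3.58.1), other size factors and filters, a non-robust fit, a replicate block, tissue scores as covariates and 1 library fewer. Simulated data for female against male (14706 genes tested) gave calls for 62 of 65 genes at 4-fold, 24 of 70 at 2-fold, 6 of 64 at 1.5-fold and 6 unchanged ones. Each gene was drawn independently with the spread typical of its abundance, without the tissue differences of the real libraries. These rates need not hold for the real genes. Same-sex libraries differed beyond sampling noise (chi-square per degree of freedom 13.2 or more). Members and lists were chosen with earlier results of these data known. Named were members, tested other kallikreins, called genes and up to 4 of smallest p per list, and the 10 genes most like the members, of which 1 is not reported here; Mog and Klk15 were chosen after their values were seen. A row was found for 6 of 7 inhibitor and 11 of 12 substrate symbols.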

Additional observations from a re-analysis of the deposited data

Results flagged for a closer look

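In 46 sets of 4 libraries of the same sex (member levels, ratios to Spink5 and library measures), 1 held a library far from the others for the spread of its set. By chance about 1 set in 20 would. The ratio of Klk7 to Spink5 counts in female replicate 3 was 0.53, against 0.57 to 0.576 in the other females. That library also had the least muscle transcript, a summed level of 32.4 CPM.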

How the results depend on the processing

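No alternative called a member: the lowest adjusted p of any member was 0.0946, for Klk10 with the keratinocyte score as covariate. Of 170 member fold changes under the alternatives 168 kept their sign and side of the threshold. Klk7 turned to 0.012 without female replicate 1 (range -0.25 to 0.012 with 1 library fewer), and Klk6 to -0.14 without the 2 libraries of lowest and highest muscle score, a fit chosen after seeing the data; the cause was not tested. With CPM of at least 2 in 4 libraries Klk14 was not tested. Over all genes, 6 were called higher and 8 lower in females; DESeq2 called 57 and 55, and the keratinocyte covariate 43 and 30. Without the 2 muscle extremes 5 were lower. With 1 library fewer 2 to 7 were higher (3 without male replicate 1, 2 without male replicate 3 or 4) and 6 to 10 lower. Libraries with the same replicate number were not alike (same-number correlations of deviations -0.31 to -0.09, and 0 of 4 males correlated best with the female of its own number). With tissue content this varied, these correlations cannot show whether the animals were paired, and the labels do not say. With the replicate number as a block 2 genes were called higher and 5 lower, and no member. DESeq2 called 1 pathway gene lower, Lor, and no other alternative called any. The 5 passing relations with the tissue scores became 3 to 5 with 1 library fewer, and 7 passed with upper quartile scaling. These checks counted both scores together and were added after seeing the data. The mean ratio of summed kallikrein to Spink5 counts ran from 1.19 to 1.27 in females and from 1.04 to 1.07 in males with 1 library fewer. At 2 to 21 counts, depth limits Klk14.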
